A study of Mus musculus with 16 samples.

Results

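The genes of the standing (constitutive) 26S proteasome were followed in B16F10 mouse melanoma cells in which a guide RNA directed at Nlrc5 was compared with a scramble guide. Members were all symbols made of Psma, Psmb, Psmc or Psmd and a number, without the inducible subunits Psmb8, Psmb9 and Psmb10, at a mean normalised count of at least 10. There were 35 such genes in each of the 3 tables, of 13143 genes listed for TDM culture, 13284 for TDMa culture and 14933 for TDMa tumours, and all 35 passed the filter in every table. They held 14 core genes (7 Psma, 7 Psmb) and 21 genes of the regulatory group (Psmc and Psmd). Of these 21, Psmd5, Psmd9 and Psmd10 encode chaperones that help build the regulatory particle. Psmc3ip matched by its symbol alone: it encodes a partner of meiotic recombinases and no proteasome subunit. That leaves 31 subunit genes.

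The proteasome is the protease that degrades ubiquitin-tagged proteins and yields most peptides shown on MHC class I. Its core is a barrel of alpha rings, which gate the entrance, and beta rings, of which Psmb6, Psmb7 and Psmb5 carry the active sites. The regulatory particle caps the barrel: a ring of Psmc ATPases unfolds the substrate and pulls it in, and Psmd proteins bind ubiquitin, remove it and hold the lid together. Under interferon, Psmb9, Psmb10 and Psmb8 take the places of Psmb6, Psmb7 and Psmb5 in newly built cores.

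RNA was sequenced from the B16F10-TDM line in culture, from the B16F10-TDMa line in culture and from tumours of the B16F10-TDMa line, each transduced with sgScramble or sgNlrc5. The culture groups had 2 libraries per guide and the tumour groups 4 per guide, 16 in all. The labels do not explain the names TDM and TDMa, and the series title speaks of demethylating and activating Nlrc5, a transactivator of MHC class I genes. The labels do not say whether replicates came from separate cultures or animals, whether the lines were clones, or what hosts bore the tumours, so each p-value reflects only how these samples vary.

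The libraries held 12183889 to 16390886 recovered reads over listed genes. Nlrc5 was higher with sgNlrc5 in every table: 17.8 against 68.0 normalised counts in TDM culture, 248 against 3144 in TDMa culture and 577 against 3916 in TDMa tumours, group means whose libraries did not overlap. All 7 melanocyte markers (Mitf, Sox10, Pmel, Tyr, Tyrp1, Dct, Mlana) were listed in every table. A gene is called here when its limma adjusted p, Benjamini-Hochberg over all tested genes of the table, was below 0.05. Log2 fold changes are sgNlrc5 minus sgScramble on the log2(normalised count + 1) scale, ± SE, and normalised counts are means ± SD.

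Promoter windows of 6 genes are printed because these carried the changes described below: Psmd8 rose and Psmc5 and Psmd12 fell in both TDMa settings, Psmd10 changed in opposite directions, Psmc6 fell in tumours, and Psmb6 was the catalytic gene that fell in TDMa culture. Each line is the 120 bases just upstream of the RefSeq start on the GRCm38.p6 build, read 5′ to 3′ on the gene's strand. The windows lie at chr7:29180674-29180793 (minus strand) for Psmd8, chr11:106256065-106256184 (plus) for Psmc5 and chr11:70525237-70525356 (plus) for Psmb6. Those of Psmd12, Psmd10 and Psmc6 lie at chr11:107479408-107479527 (plus), chrX:140956712-140956831 (minus) and chr14:45329704-45329823 (plus). Capitals mark matches, on either strand, to the 4 motifs searched.
Psmd8: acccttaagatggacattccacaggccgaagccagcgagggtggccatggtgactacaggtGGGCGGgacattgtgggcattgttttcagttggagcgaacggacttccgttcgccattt
Psmc5: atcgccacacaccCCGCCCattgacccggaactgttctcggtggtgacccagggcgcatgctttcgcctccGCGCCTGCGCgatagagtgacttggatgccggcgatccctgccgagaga
Psmb6: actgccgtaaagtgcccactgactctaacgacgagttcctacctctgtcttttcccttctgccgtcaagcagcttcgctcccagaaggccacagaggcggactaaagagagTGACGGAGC
Psmd12: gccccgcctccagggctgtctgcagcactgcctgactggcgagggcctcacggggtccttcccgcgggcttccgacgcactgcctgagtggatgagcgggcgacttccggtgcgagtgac
Psmd10: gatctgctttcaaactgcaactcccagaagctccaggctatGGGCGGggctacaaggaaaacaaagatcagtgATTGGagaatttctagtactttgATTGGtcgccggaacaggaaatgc
Psmc6: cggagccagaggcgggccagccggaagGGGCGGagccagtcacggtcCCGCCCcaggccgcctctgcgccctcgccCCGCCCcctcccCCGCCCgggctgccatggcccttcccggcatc

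The 4 motifs were TGACNNNGC, CCAAT, bound by NF-Y, the motif of the nuclear respiratory factor NRF1, and GGGCGG, the GC box of Sp factors. TGACNNNGC is a form of the antioxidant response element that Nfe2l1 and Nfe2l2 bind. NRF1 means the nuclear respiratory factor throughout, and not the product of Nfe2l1, which is also called by that name. All 4 motifs were sought in the 250 bases upstream of the start, which 29 of the 35 members had in the RefSeq table. The comparison set was all 27025 genes with such a window, expressed here or not. It was not matched to the members in expression or base content, so an excess need not be particular to proteasome genes. The GC box occurred in 17 of 29 members (58.6%, against 35.4% of all 27025 genes) and CCAAT in 12 (41.4% against 37.5%). The NRF1 letters occurred in 6 members (20.7% against 4.23%) and the antioxidant-type letters in 5, namely Psmb5, Psmb6, Psmc6, Psmd9 and Psmd12 (17.2% against 11.5%). The matches of Psmc6 and Psmd12 to the last of these lie upstream of the printed bases. The files identify these genes as ENSMUSG00000030591 (Psmd8), ENSMUSG00000020708 (Psmc5), ENSMUSG00000018286 (Psmb6), ENSMUSG00000020720 (Psmd12), ENSMUSG00000031429 (Psmd10) and ENSMUSG00000021832 (Psmc6). In the lines above, Psmb6 shows the antioxidant-type letters next to its start, Psmc5 the NRF1 letters and a GC box, and Psmd10 CCAAT letters on the minus strand at 2 places. Psmc6 shows GC boxes at 4 places and Psmd8 a single one. A match is a string of letters in a window, not a bound site.

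Per kilobase of principal transcript (GENCODE annotation of GRCm38), Psmb3 had the highest mean level of the 35 genes in each table: 6090 normalised counts per kilobase in TDM culture, 5330 in TDMa culture and 4150 in TDMa tumours. The catalytic gene Psmb6 was next in TDM culture (5120) and in tumours (3540) and came after Psma7 (4000) in TDMa culture (3760). Psmb5, the gene of the chymotrypsin-like site, was far lower per kilobase, at 1180, 827 and 768. A pseudogene copy at least 95% identical could share reads with Psmb5. The chaperone genes Psmd5, Psmd9 and Psmd10 and the non-subunit Psmc3ip were the lowest 4 in every table, between 144 and 498 per kilobase. Levels are comparable between genes within a table only, since each table was normalised alone.

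In TDM culture no proteasome gene passed the test. Of the 35 genes, 0 were called in either direction by limma, beside 0.517% of all 11989 tested genes (0.284% higher and 0.234% lower). None reached an unadjusted p below 0.05, and voom on the recovered reads also called 0. The median log2 fold change of the members was 0.03, beside 0.00 (0.000332) for all tested genes, and 27 of 35 values were above 0. That lean rested on 1 library: without sgNlrc5 replicate 1 the median was -0.00679. Every 95% interval for a member lay between -0.23 and 0.31. Each holds for its gene alone, from 4 libraries and a variance moderated across genes, so together they do not bound the changes of all members.

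The members with the smallest p in TDM culture were Psmd4, a ubiquitin receptor of the regulatory particle, the catalytic Psmb6, and the alpha subunit gene Psma6. Psmd4 had 3058 and 3065 normalised counts with sgScramble and 3379 and 3155 with sgNlrc5 (log2 fold change 0.09 ± 0.05, limma adjusted p = 0.63). Psmb6 had 4017 and 3915 against 4306 and 4094 (0.08 ± 0.05, limma adjusted p = 0.651). Psma6 had 3699 and 3671 against 4055 and 3760 (0.08 ± 0.05, limma adjusted p = 0.655). In all of these the sgNlrc5 libraries lay above the sgScramble libraries, and by amounts that the test did not separate from the spread. Of the other catalytic genes, Psmb5 had 1070 and 1078 against 1054 and 1051 (-0.03 ± 0.06), and Psmb7 had 1589 and 1732 against 1721 and 1677 (0.03 ± 0.06).

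In TDMa culture 12 of the 35 genes were called, 3 higher and 9 lower (34.3%), beside 34.2% of all 12138 tested genes (17.3% higher and 16.9% lower). The share called was thus that of the table as a whole. Members had higher counts, at a median of 2720 beside 444 for all tested genes, so the comparison is not between genes at like levels. Called changes were small, with absolute log2 values from 0.11 (Psmc2) to 0.35 (Psmc5). The regulatory group held 10 of the 12 (10 of 21 genes) and the core 2 of 14. The median member changed by -0.04, beside -0.00 (-0.000636) for all genes, and the median absolute change was 0.10, beside 0.18. With sums set equal, or with quantile normalisation, the split was 2 higher and 13 lower. Without sgScramble replicate 1 it was 3 higher and 5 lower, and without the intensity trend of the variances 0 higher and 1 lower, Psmc5.

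Among the ATPases, Psmc5 fell the most of all members in TDMa culture. It had 4015 and 4033 normalised counts with sgScramble and 3220 and 3108 with sgNlrc5, and fell by 21.4% (log2 -0.35 ± 0.04, limma adjusted p = 6.7e-07). The groups were far apart, and this call held under all 12 alternatives. Psmc1 (-0.13 ± 0.04, limma adjusted p = 0.0085) and Psmc2 (-0.11 ± 0.04, limma adjusted p = 0.044) also fell. The call of Psmc2 was lost on leaving out any 1 of the 4 libraries, that of Psmc1 without replicate 1 of either guide, and both without the intensity trend. Psmc3, Psmc4 and Psmc6 had values between -0.03 and 0.03 and were not called.

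Lid and base genes went both ways. Psmd8, a lid subunit, had 4626 and 4656 normalised counts with sgScramble and 5669 and 5555 with sgNlrc5, a rise of 20.9% (log2 0.27 ± 0.03, limma adjusted p = 2.94e-06). Psmd2, the large base subunit on which shuttle factors dock, had 8363 and 8305 against 9435 and 9308 (0.17 ± 0.03, limma adjusted p = 0.00014). In both genes each sgNlrc5 library lay above each sgScramble library, though the change of Psmd2 was 0.07 under quantile normalisation. A pseudogene copy at least 95% identical could share reads with Psmd2, and another with Psmc1. The lid genes Psmd3, Psmd12 and Psmd6 fell. Psmd3 had 4267 and 4342 against 3677 and 3700 (-0.22 ± 0.04, limma adjusted p = 6.4e-05). Psmd12 had 3743 and 3806 against 3276 and 3200 (-0.22 ± 0.04, limma adjusted p = 0.00011). Psmd6 had 1778 and 1763 against 1603 and 1529 (-0.18 ± 0.05, limma adjusted p = 0.0071), a call lost without sgScramble replicate 1 or sgNlrc5 replicate 2. The guides did not overlap in these lid genes. Psmd3 overlaps an antisense gene, and the sources used here do not say whether reads were counted by strand. It is 1 of 9 members that overlap a gene on the opposite strand, among them Psmc3ip, Psmb7 and Psmd1. On the same strand 2 members, Psmb5 and Psmd1, overlap another gene.

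Of the 3 chaperone genes, Psmd10 (gankyrin) was called higher in TDMa culture. It had 695 and 629 normalised counts against 787 and 739 (log2 fold change 0.21 ± 0.07, limma adjusted p = 0.033), and the call was lost under 5 of 12 alternatives, among them without sgNlrc5 replicate 1 and without sgScramble replicate 2, where the change was 0.14. Psmd5 and Psmd9 were not called. Psmc3ip had 505 and 485 against 383 and 418 (-0.31 ± 0.09, limma adjusted p = 0.0098), lost without sgScramble replicate 1 or sgNlrc5 replicate 1.

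In the core, no alpha gene was called in TDMa culture, and the 2 beta genes that fell were Psmb6 and Psmb3. Psmb6 had 3259 and 3280 normalised counts with sgScramble and 2714 and 2765 with sgNlrc5, and fell by 16.2% (log2 -0.26 ± 0.04, limma adjusted p = 3.7e-05). Psmb3, which carries no active site, had 4480 and 4255 against 3845 and 3764 (-0.20 ± 0.04, limma adjusted p = 0.00036). The guides were apart in both, although 3 pseudogene copies at least 95% identical to Psmb3 could share its reads. Psmb5 had 712 and 828 against 730 and 703 (-0.10 ± 0.07, limma adjusted p = 0.336), and Psmb7 had 1572 and 1518 against 1500 and 1514 (-0.04 ± 0.05, limma adjusted p = 0.615). The guides overlapped for Psmb5 and lay close together for Psmb7, so of the 3 catalytic genes only Psmb6 was called. Summed over its 14 genes the core went from 35803 ± 1200 to 34607 ± 164 normalised counts, a change of -3.34%, and the 20 regulatory genes without Psmc3ip from 62441 ± 523 to 61827 ± 267, a change of -0.983%. The median change of the core genes was -0.02 and was 0.01 without sgScramble replicate 1.

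**Figure D1:**
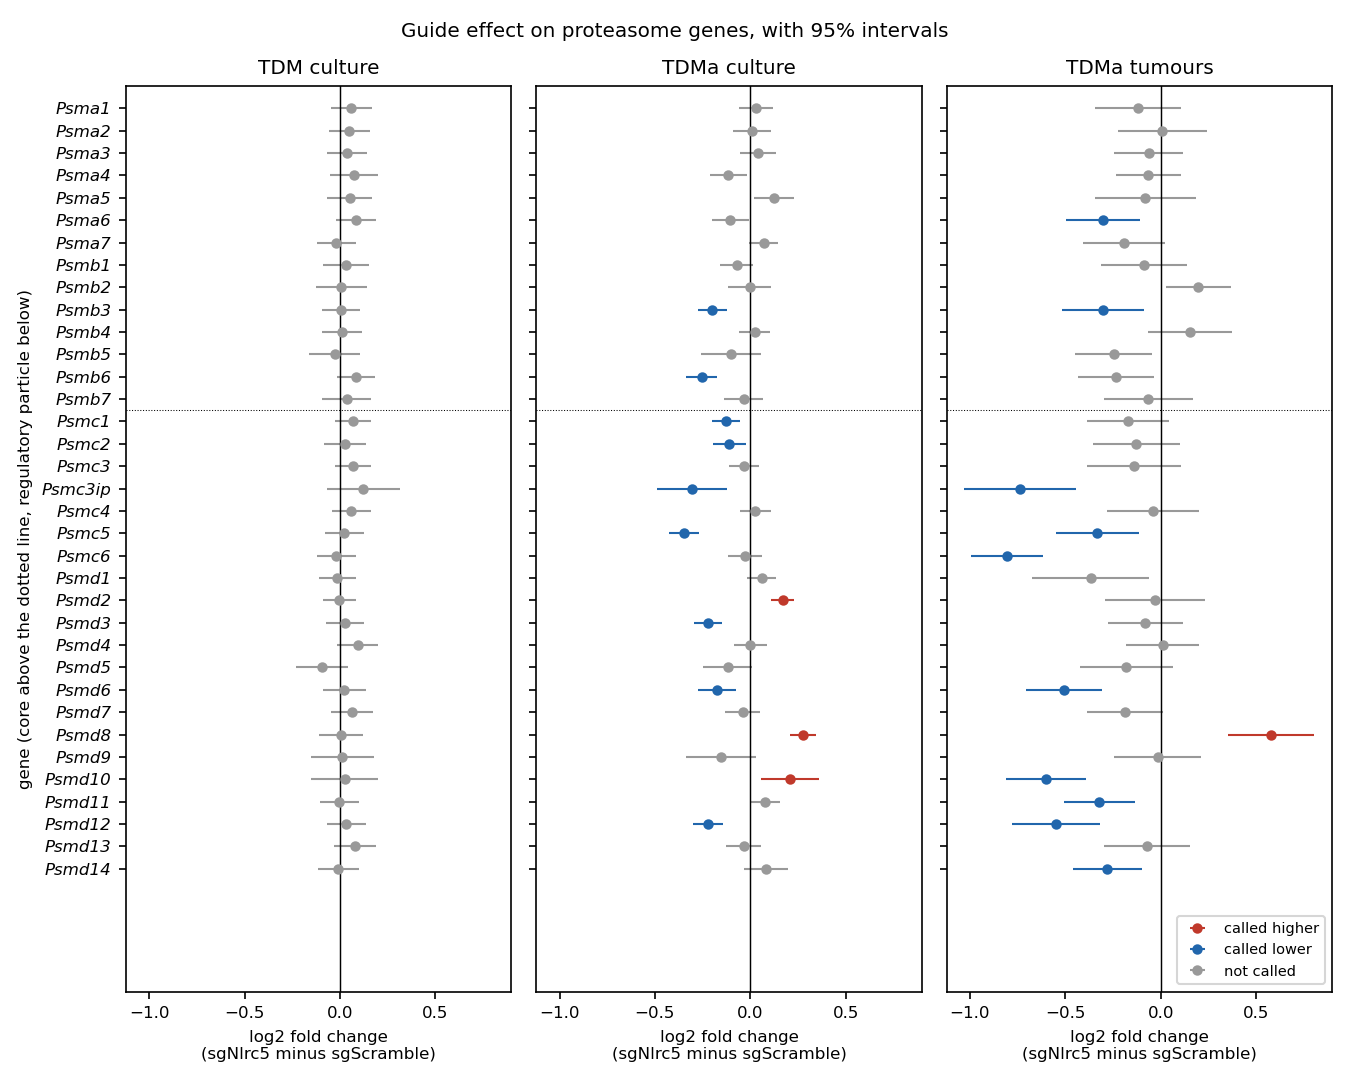
Log2 fold change (sgNlrc5 minus sgScramble, x axis) of each of the 35 genes (y axis) in TDM culture, TDMa culture and TDMa tumours, with 95% intervals; red and blue points passed the limma test (adjusted p below 0.05). No point is coloured in TDM culture, 12 are in TDMa culture and 11 in TDMa tumours, where 30 of 35 points lie left of 0 and Psmd8 lies farthest right at 0.58.

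Melanocyte markers also moved in TDMa culture: 6 of 7 were called higher, beside 17.3% of all tested genes (16.9% were lower). Their summed level was 147000 to 149000 with sgScramble and 203000 to 204000 with sgNlrc5. Their part in the proteasome results was not tested. T cell, NK cell, keratinocyte, endothelial and erythroid markers were not listed there. Of the macrophage markers only Cd68 was listed (called higher, 700 to 760 against 1020 to 1070), of the leukocyte markers 1 of 3 (8.61 to 16.2 against 14.5 to 32.6) and of the B cell markers 1 of 3 (8.56 to 8.61 against 2.25 to 5.81). Fibroblast markers were listed for 3 of 5 (353 to 354 against 299 to 359, 1 higher and 2 lower) and muscle markers for 1 of 4, Des, which was lower (578 to 579 against 315 to 360).

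The guide effect itself differed between the lines for 10 of the 35 genes, beside 22.7% of 11492 tested genes, 12.0% positive and 10.8% negative (limma interaction, TDMa culture minus TDM culture). The difference was positive for Psmd8 (0.27 ± 0.06) and Psmd2 (0.17 ± 0.05). It was negative for 8 genes, with Psmc5 (-0.37 ± 0.06, limma adjusted p = 5.9e-05) and Psmb6 (-0.34 ± 0.06, limma adjusted p = 0.00015) holding under all 18 alternatives. The others were Psmb3, Psmc1, Psmc3ip, Psmd3, Psmd6 and Psmd12, between -0.20 and -0.43. Psmd6 kept its call under 9 of the 18 alternatives, Psmb3 under 12, Psmc3ip under 13 and Psmc1 under 15. Psmd3, Psmd12 and Psmd8 kept theirs under 17 each. Psmd2 kept its call under 14, with a lowest difference of 0.07. The median difference was -0.07, beside 0.00 (0.000476) for all genes. The split of 2 positive and 8 negative was 1 and 12 under quantile normalisation and 0 and 2 without the intensity trend. It was 1 and 4 without TDM sgScramble replicate 1 and 1 and 5 without TDM sgScramble replicate 2. Without TDMa sgScramble replicate 1, 5 were negative.

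In TDMa tumours 11 of the 35 genes were called, 1 higher and 10 lower (31.4%), beside 39.4% of all 13385 tested genes (19.7% in each direction). Psmd8 rose, and Psmc6, Psmd10, Psmd12 and Psmd6 fell by 29.6% to 42.8%. Most other members lay a little below the scramble level: 30 of 35 values were negative and the median was -0.14, beside -0.01 for all genes. The regulatory group again held most calls, 9 of 21 genes against 2 of 14 core genes, with medians of -0.18 and -0.08. These medians rested in part on single tumours. Without sgScramble replicate 1 they were -0.06 for the members, -0.04 for core and -0.11 for regulatory genes, and without sgNlrc5 replicate 2 they were -0.09, -0.05 and -0.12. The core median was -0.05 without sgScramble replicate 4, -0.14 without sgScramble replicate 2 and -0.15 without sgScramble replicate 3, and the members' median was -0.22 without sgNlrc5 replicate 3. The median absolute change of members was 0.18 beside 0.31 for all genes, and 0 members changed by more than 1 in log2. Here too members had higher counts, at a median of 2110 beside 375 for all tested genes. Without sgScramble replicate 1, the tumour with the highest core and regulatory sums, 6 genes were lower, namely Psmc3ip, Psmc6, Psmd6, Psmd10, Psmd11 and Psmd12. Without sgNlrc5 replicate 2 there were 7 lower and 2 higher, Psmb2 joining Psmd8.

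The ATPase gene Psmc6 had the largest absolute change of the members. It had 2276, 2016, 1905 and 2089 normalised counts with sgScramble and 1293, 1089, 1220 and 1135 with sgNlrc5, from 2071 ± 156 to 1184 ± 90.5 (log2 -0.81 ± 0.09, limma adjusted p = 5.4e-05). Every sgNlrc5 tumour lay well below every sgScramble tumour, and the call held under all 16 alternatives. Psmc5 had 3193, 2581, 2643 and 2876 against 2281, 1923, 2477 and 2296 (-0.33 ± 0.10, limma adjusted p = 0.020). Its groups did not overlap, though the highest sgNlrc5 value came close to the lowest sgScramble value, and the call was lost without sgScramble replicate 1 or sgNlrc5 replicate 2. The other ATPase genes, Psmc1 to Psmc4, overlapped between guides, with values from -0.17 to -0.04.

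Psmd8 was the only member called higher in TDMa tumours. It had 3899, 3474, 3239 and 4013 normalised counts with sgScramble and 4586, 5795, 5585 and 5880 with sgNlrc5, from 3656 ± 362 to 5462 ± 597, a rise of 49.2% (log2 0.58 ± 0.10, limma adjusted p = 0.0013). All 4 sgNlrc5 tumours exceeded all 4 sgScramble tumours. Its lid partners Psmd12 and Psmd6 fell. Psmd12 had 2966, 2363, 2471 and 2341 against 1581, 1559, 2019 and 1772 (-0.55 ± 0.11, limma adjusted p = 0.0020). Psmd6 had 1711, 1386, 1312 and 1535 against 1060, 1032, 1050 and 1021 (-0.51 ± 0.09, limma adjusted p = 0.0012). Neither overlapped between guides, and the sgNlrc5 values of Psmd6 were close together (SD 17.6, beside 176 with sgScramble). Psmd11, a lid gene, had 2519, 2298, 2201 and 2344 against 1679, 1820, 2062 and 1942 (-0.32 ± 0.09, limma adjusted p = 0.011). Psmd14, the deubiquitinase of the lid, had 1892, 1606, 1522 and 1716 against 1353, 1377, 1410 and 1389 (-0.28 ± 0.08, limma adjusted p = 0.019). Calls of Psmd8, Psmd12, Psmd6 and Psmd11 held under all 16 alternatives, and that of Psmd14 was lost without sgScramble replicate 1 and under a replicate block. A near-identical copy, A730017L22Rik, could share reads with Psmd11. Psmd1, the other large base subunit, was lower in the mean with overlapping groups (-0.37 ± 0.14, limma adjusted p = 0.057).

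Psmd10 had 737, 663, 667 and 692 normalised counts with sgScramble and 445, 433, 527 and 417 with sgNlrc5, from 689 ± 33.9 to 456 ± 49.1 (log2 -0.60 ± 0.10, limma adjusted p = 0.00064). Every sgNlrc5 tumour was lower, which is opposite to TDMa culture. Psmd5 (-0.18 ± 0.11) and Psmd9 (-0.02 ± 0.10) were not called. Psmc3ip had 292, 240, 241 and 244 against 156, 130, 180 and 145 (-0.74 ± 0.13, limma adjusted p = 0.0014), without overlap.

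**Figure D2:**
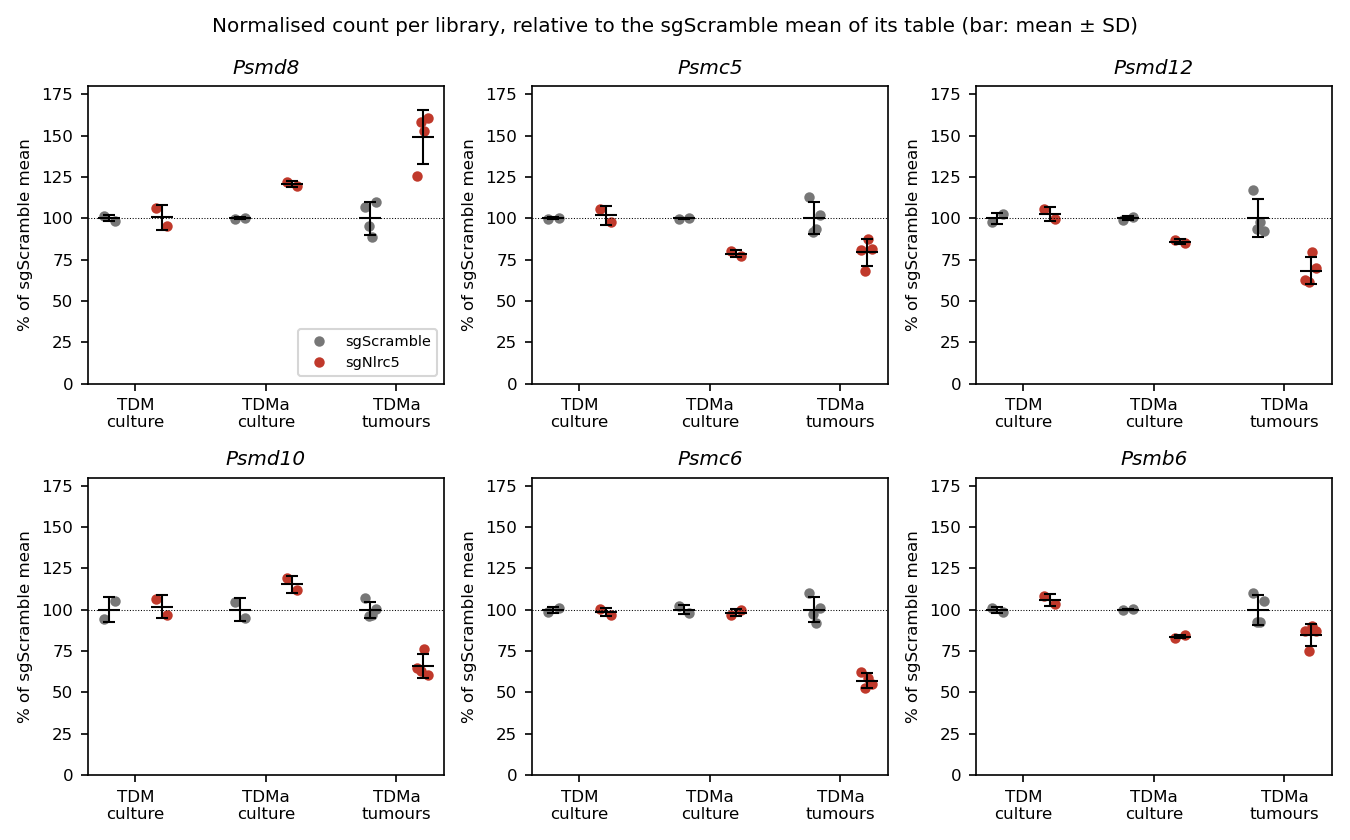
Normalised count of each library as a percent of the sgScramble mean of its table (y axis), for 6 genes in TDM culture, TDMa culture and TDMa tumours (x axis); grey points are sgScramble, red points sgNlrc5, bars mean ± SD (n = 2 per guide in culture, 4 in tumours). Psmd8 is above 100 with sgNlrc5 in both TDMa settings, Psmc5 and Psmd12 are below, Psmd10 is above in culture and below in tumours, and Psmc6 is below in tumours.

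In the core, Psma6 and Psmb3 were called lower in tumours. Psma6 had 2892, 2355, 2455 and 2802 normalised counts against 2153, 1947, 2156 and 2234 (-0.30 ± 0.09, limma adjusted p = 0.018), and Psmb3 had 3900, 3433, 3166 and 3529 against 3018, 2431, 3145 and 2791 (-0.30 ± 0.10, limma adjusted p = 0.029). The guides did not overlap in either, by a narrow margin for Psmb3. Both calls were lost without sgScramble replicate 1 and without sgNlrc5 replicate 2, and that of Psmb3 also without sgScramble replicate 2 or 4 or sgNlrc5 replicate 4, without the intensity trend and under a replicate block. The catalytic genes were not called. Psmb5 had 778, 726, 705 and 787 against 725, 609, 623 and 572 (-0.25 ± 0.09, limma adjusted p = 0.053). Psmb6 had 3368, 2835, 2825 and 3216 against 2662, 2293, 2758 and 2674 (-0.24 ± 0.09, limma adjusted p = 0.058). Psmb7 had 1269, 1030, 953 and 1211 against 944, 1036, 1166 and 1104 (-0.07 ± 0.11, limma adjusted p = 0.663). Psmb6 did not overlap between guides, Psmb5 overlapped slightly and Psmb7 fully. Psmb2 (0.20 ± 0.08, limma adjusted p = 0.065) and Psmb4 (0.15 ± 0.10) were the core genes with the highest values.

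The summed core counts were 31563 ± 3250 with sgScramble and 29307 ± 1810 with sgNlrc5, a change of -7.15%, and the regulatory sums 45926 ± 4060 and 41962 ± 3900, a change of -8.63% (n = 4 per guide, the 20 regulatory genes without Psmc3ip). Both ranges overlapped: core sums ran from 28477 to 35154 and from 26688 to 30615, regulatory sums from 42577 to 51827 and from 38301 to 46521. The sgScramble tumours alone spread over a wider range than the difference between the guide means.

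The tumours also differed in their cell makeup markers. Of all tested genes, 19.7% were called in each direction in tumours. Leukocyte markers were higher for 3 of 3 (summed 451 to 991 with sgScramble, 1810 to 2940 with sgNlrc5), T cell markers for 5 of 5 (31.8 to 54 against 203 to 817) and macrophage markers for 5 of 5 (1860 to 2490 against 7400 to 8950). Of the NK cell markers 1 of 3 was listed and higher (9.19 to 32.6 against 45.2 to 123), and of the B cell markers 1 of 3 was listed and not called (2.65 to 13.9 against 6.33 to 30.1). Melanocyte markers summed to 566000 to 638000 against 598000 to 954000, with 2 higher and 1 lower of 7. Fibroblast markers (5 of 5 listed, 2 higher, 1 lower) ran from 242 to 493 against 488 to 605, and endothelial markers (3 of 4, none called) from 28.7 to 156 against 51.5 to 166. Muscle markers (2 of 4, 1 higher) ran from 105 to 207 against 284 to 406, and erythroid markers (3 of 3, 1 lower) from 654 to 3100 against 420 to 1070. Keratinocyte markers were not listed. The part of these cells in the proteasome results was not tested, and in such bulk tumours fewer cells of a type and less RNA per cell cannot be told apart.

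TDMa culture and TDMa tumours share no library. Of the 12 genes called in culture and the 11 in tumours, 1 was higher in both (Psmd8), 5 were lower in both (Psmb3, Psmc3ip, Psmc5, Psmd6 and Psmd12) and 1, Psmd10, was called in opposite directions. That is 6 of 12 culture calls and 6 of 11 tumour calls with the same sign. Over the 11782 genes tested in both, 938 were called with the same sign, 23.2% of 4048 culture calls and 21.1% of 4453 tumour calls. Another 925 of these genes were called in opposite directions, nearly as many. The absolute change was larger in tumours for 27 of 35 genes (77.1%), beside 61.9% of all genes tested in both. Across the 35 genes the changes had Pearson's r = 0.40 and Spearman's rho = 0.30, with r = -0.03 over all genes tested in both. These are descriptions across genes, which are not independent replicates.

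The guide effect differed between tumours and culture of the TDMa line for 8 of the 35 genes, all negative, beside 36.6% of 11782 tested genes, 15.0% positive and 21.6% negative (limma interaction, tumours minus culture). Psmd10 (-0.81 ± 0.12, limma adjusted p = 0.00012), Psmc6 (-0.78 ± 0.10, limma adjusted p = 2.5e-05) and Psmd11 (-0.40 ± 0.10, limma adjusted p = 0.0050) differed under all 22 alternatives. Psmc3ip, Psmd1, Psmd6, Psmd12 and Psmd14, between -0.33 and -0.43, were less stable. The call of Psmc3ip held under 6 of the 22, those of Psmd1 and Psmd12 under 7 each, that of Psmd6 under 16 and that of Psmd14 under 18. The call of Psmd14 was lost without replicate 2 of either guide in culture, and that of Psmd6 without either sgScramble culture, sgNlrc5 culture replicate 1 or sgScramble tumour replicate 1. Leaving out any single library lost the other calls, except sgNlrc5 culture replicate 1 and sgNlrc5 tumour replicate 3 for Psmc3ip, sgScramble tumour replicate 4 and sgNlrc5 tumour replicates 3 and 4 for Psmd1, and sgScramble tumour replicates 2 and 4 and sgNlrc5 tumour replicate 3 for Psmd12. The difference for Psmd1 was -0.28 with a weight per library, a setting chosen after seeing the data. The difference for Psmc5 was 0.01 ± 0.11 (limma adjusted p = 0.931) and that for Psmd8 0.30 ± 0.12 (limma adjusted p = 0.052), and neither was called. The median difference of the members was -0.10, beside -0.07 for all genes. The 0 positive and 8 negative became 1 and 4 under quantile normalisation and 1 and 5 with equal sums. Leaving out single libraries gave 3 to 8 negative: 3 without culture sgScramble replicate 2, 4 without culture sgScramble replicate 1, culture sgNlrc5 replicate 2 or tumour sgScramble replicate 1, and 5 without culture sgNlrc5 replicate 1, tumour sgNlrc5 replicate 1 or tumour sgNlrc5 replicate 2.

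**Figure D3:**
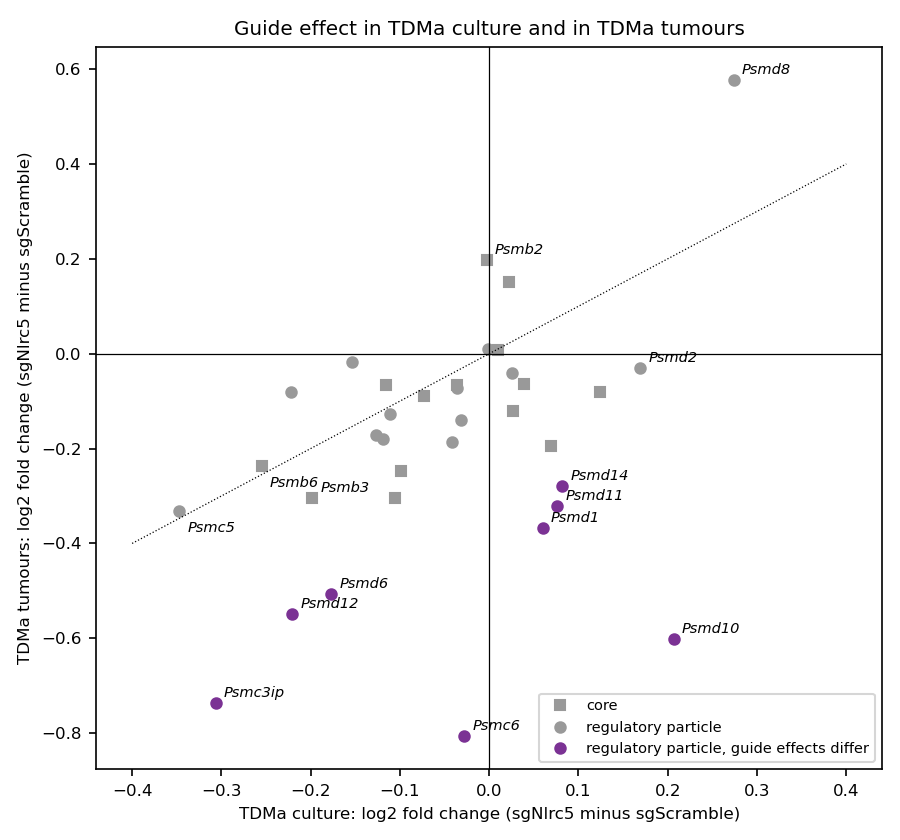
Log2 fold change (sgNlrc5 minus sgScramble) of each of the 35 genes in TDMa culture (x axis) and TDMa tumours (y axis); squares are core genes, circles regulatory genes, purple those whose guide effects differed by the interaction test, and the dotted line marks equal change. Psmc5 lies on the line, Psmd8 above it at the upper right, and Psmd10 and Psmc6 lie far below it, at -0.60 and -0.81 in tumours.

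The inducible counterparts of the catalytic genes had larger changes than these in the TDMa samples. In TDM culture Psmb9 had 43.2 and 32.9 normalised counts with sgScramble and 50.6 and 87.1 with sgNlrc5 (0.80 ± 0.29, limma adjusted p = 0.396), and Psmb10 had -0.07 ± 0.09, with 0 of 2 called. In TDMa culture Psmb9 had 44.0 and 29.5 against 450 and 420 (3.56 ± 0.19, limma adjusted p = 4.0e-11), while Psmb10 fell from 369 and 289 to 219 and 219 (-0.57 ± 0.12, limma adjusted p = 0.0013). Psmb8 was not listed in either culture table. In tumours all 3 rose. Psmb8 went from 522 ± 338 to 3226 ± 391 (2.83 ± 0.33, limma adjusted p = 0.00010) and Psmb9 from 1141 ± 599 to 5310 ± 728 (2.39 ± 0.32, limma adjusted p = 0.00023), without overlap. Psmb10 went from 1132 ± 587 to 1927 ± 431 with overlap (0.88 ± 0.29, limma adjusted p = 0.031).

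**Figure D4:**
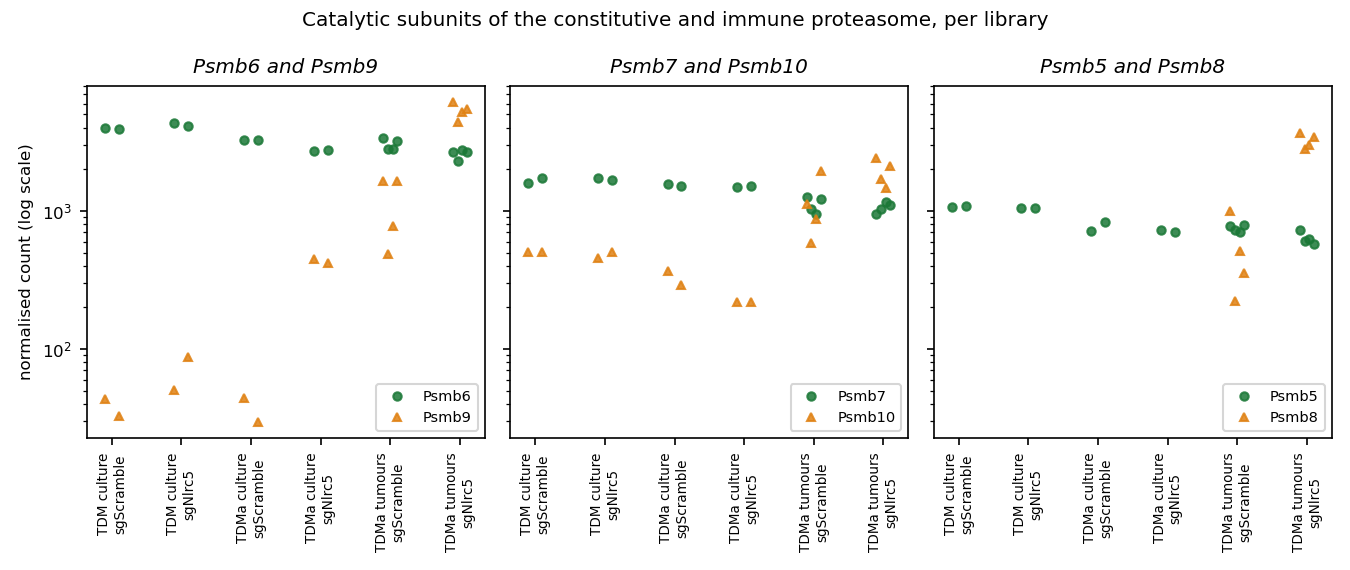
Normalised counts per library (y axis, log scale) of the constitutive catalytic genes (green circles) and their inducible counterparts (orange triangles), by table and guide (x axis); Psmb8 was not listed in culture. The green points stay within a narrow band across guides, while Psmb9 goes from 29.5 and 44.0 to 420 and 450 in TDMa culture and all 3 inducible genes are higher with sgNlrc5 in the tumour means.

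Other genes of the pathway were counted by role. Of all tested genes, 17.3% were called higher and 16.9% lower in TDMa culture, and 19.7% in each direction in tumours. In TDM culture these shares were 0.284% and 0.234%. The lists are short, so a single gene moves a list's share by much. In the TDMa samples 1 of 5 or 2 of 8 genes lies near these shares. A count of 2 of 5 lies above them, but rests on few genes and was not tested. None of the other lists had a called member in TDM culture, where the smallest p belonged to Pomp (0.15 ± 0.06) among core assembly factors and Nfyc (0.18 ± 0.07) among transcriptional regulators. Among the genes of alternative caps and of the core inhibitor Psmf1, 4 of 5 fell in TDMa culture: Psme1 (-0.43 ± 0.07), Psme2 (-0.74 ± 0.08), Psme3 (-0.24 ± 0.04) and Psme4 (-0.13 ± 0.04). In tumours 2 of 5 fell, Psme3 (-0.31 ± 0.09) and Psme4 (-0.62 ± 0.07). Among core assembly factors 0 of 5 were called in TDMa culture and 1 of 5, Psmg2 (-0.36 ± 0.12), fell in tumours.

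Of 5 further genes of the regulatory particle and its bound enzymes, TDMa culture had Ecpas higher (0.27 ± 0.04) and Sem1 lower (-0.20 ± 0.04). Tumours had 3 lower, the small lid subunit Sem1 (-0.29 ± 0.09) and the deubiquitinases Uchl5 (-0.48 ± 0.12) and Usp14 (-0.59 ± 0.10). Of 8 regulators, Nfe2l1, whose product drives subunit genes when the proteasome is impaired, fell in TDMa culture from 3720 and 3614 to 2998 and 3118 normalised counts (-0.26 ± 0.04). In tumours it rose from 4351 ± 346 to 5826 ± 805 (0.42 ± 0.11), without overlap. Ddi2 (0.19 ± 0.06), the protease that activates that factor, and Nfyc (0.19 ± 0.06) rose and Nfya (-0.12 ± 0.05) fell in TDMa culture. Nfe2l2 (0.22 ± 0.08) rose and Ngly1 (-0.37 ± 0.10) and Foxo4 (-0.24 ± 0.08) fell in tumours.

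Shuttle and extraction factors had 2 of 8 lower in TDMa culture, Nploc4 (-0.14 ± 0.04) and Ubqln2, and in tumours Rad23b (-0.38 ± 0.11) and Ubqln2 were lower. Ubqln2, which carries ubiquitinated proteins to the proteasome, had the largest of these changes. It went from 135 and 213 to 7.87 and 7.75 normalised counts in TDMa culture (-4.28 ± 0.30, limma adjusted p = 2.6e-09) and from 127 ± 71.1 to 27.9 ± 9.30 in tumours (-2.05 ± 0.33, limma adjusted p = 0.00070). The guides did not overlap in either setting, and no TDM value is given because Ubqln2 was not tested there. Of 5 ubiquitin genes, Ubb (-0.40 ± 0.03) and Rps27a (-0.18 ± 0.03) fell in TDMa culture. In tumours Rps27a fell (-0.67 ± 0.11).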

How the data were processed

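Total RNA of 16 libraries was sequenced with a strand-keeping kit, per the labels' protocols. The deposited values are log2 of a normalised count plus 1, per the file headers, in 3 tables that the authors normalised separately. STAR 2.7.10a, DESeq2 1.36.0 and FastQC 0.12.0, with mm39 and GRCm39 as builds, come from the submitters' processing notes. For the counting tool and its strand setting the entry is: not given in the sources used here. Values were back-transformed to counts. In every library 100% of low values lay within 0.1 of a whole number of reads, which gave the depth.

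Each table was fitted alone with limma 3.58.1 in R 4.3.3 on log2(normalised count + 1), for genes with a mean of at least 10, with an intensity trend, two-sided, threshold 0.05. This scale understates changes of low genes. Guide effects were compared between tables by interaction terms, with separate intercepts for each group and 1 array weight per table. The fits were also run on simulated counts with the same fixed biological spread for all genes and tables. That spread was not taken from these data, so the check does not show how the tests behave at the spread of the tumours. No test was run over the members as a list.

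Members, lists and the rule for named genes were chosen with earlier results of these data known. Named were Psmb5, Psmb6 and Psmb7, and in each table up to 6 called members per direction with the largest change, or the 3 with the smallest p where fewer than 3 were called. Psma6, Psmb3 and Psmd14 in tumours and the values of Psmc1, Psmc2, Psmb2, Psmb4 and Psmd1 were added after their values were seen, as were the counterparts' libraries. Some genes of the other lists are not reported here. Copies with at least 95% identity over 50% of the principal transcript were found with BLAST 2.17.0. Promoter sequences are from RefSeq, and the reference annotation is of an earlier build than the authors named, so its coordinates belong to the promoter sequences only. Alternatives were another pseudocount, filter, scaling or variance model, a replicate block, leaving out each library, and voom.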

Additional observations from a re-analysis of the deposited data

Results flagged for a closer look

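In TDMa tumours the sgScramble replicate 1 value of Psmc3ip was 291.9 normalised counts. It lay apart from the other sgScramble tumours, which ran from 239.6 to 244.3. A gap of this kind arises by chance in about 1 of 20 groups. Of 28 groups examined 1 was flagged, no more than that rate gives. The guide effect on 10 members differed between TDMa and TDM culture by the limma interaction test: Psmb3 by -0.204, Psmb6 by -0.337, Psmc1 by -0.196, Psmc3ip by -0.43, Psmc5 by -0.37, Psmd12 by -0.255, Psmd2 by 0.172, Psmd3 by -0.25, Psmd6 by -0.2 and Psmd8 by 0.269 in log2. Between TDMa tumours and TDMa culture it differed for 8: Psmc3ip by -0.43, Psmc6 by -0.778, Psmd1 by -0.427, Psmd10 by -0.808, Psmd11 by -0.397, Psmd12 by -0.329, Psmd14 by -0.362 and Psmd6 by -0.329. Only Psmb6 and Psmc5 of the first 10, and Psmc6, Psmd10 and Psmd11 of these 8, kept the call under every alternative.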

How the results depend on the processing

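Of 160 counts of called members under the alternatives, 127 stayed within 1.5 times the first value and 33 did not. The 127 include all counts of TDM culture, which were 0 throughout and so say little about stability. Of 736 values of named genes, 624 kept direction and side of the threshold, 105 lost the threshold, 5 passed it and 2 reversed: Psmb7 in TDM culture (-0.0279 without sgScramble replicate 1) and Psmb5 in TDMa culture (0.00927 without sgScramble replicate 2), neither of them called. Leaving out single libraries moved them between -0.0279 and 0.0961 and between -0.208 and 0.00927. Of 36 called results followed in this way, 13 were called under every alternative run. The tallies of 736 values and 36 results leave out Psmc1 and Psmc2 in TDMa culture and Psma6, Psmb3 and Psmd14 in tumours. Each of these was called at first and lost its call under some alternative. Without the intensity trend TDMa culture had 0 higher and 1 lower member, and the difference between lines 0 positive and 2 negative. Quantile normalisation gave 2 higher in tumours, 1 positive for the difference between lines, and 1 positive and 4 negative for tumours minus culture. The last comparison had 1 positive with a pseudocount of 10, with a mean of at least 50 and with equal sums, 2 with a weight per library, and 5 negative with equal sums and 3 without array weights. The cause was not tested. Leaving out 1 library gave 0 to 0 calls in TDM culture, 2 to 3 higher and 5 to 9 lower in TDMa culture, and 1 to 2 higher and 6 to 12 lower in tumours. It gave 1 to 2 positive and 4 to 9 negative differences between lines, and 0 to 1 positive and 3 to 8 negative for tumours minus culture. Where this left 1 library in a group, that library was assumed to vary like the others. Whether equal replicate numbers pair the samples was not settled. Deviations of same-numbered libraries correlated at -0.0238 in TDM culture, -0.0152 in TDMa culture and -0.207 to 0.109 in tumours. With 2 libraries per guide a culture table holds only 1 such correlation up to its sign, so it cannot decide. Of the tumours, only replicate 2 matched its own number best (0.109 beside 0.0633). A replicate block gave 0 and 0 calls in TDM culture, 4 higher and 11 lower in TDMa culture, 1 and 8 in tumours, 2 and 7 for the difference between lines, and 0 and 4 for tumours minus culture. The planned count tests with edgeR and DESeq2 were not run, since the deposited unit is log2; limma voom on recovered reads and a weight per library were chosen after seeing the data. The 2 libraries per guide limit the precision in culture.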
